A study of Homo sapiens with 48 samples.

Results

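The genes described here are 10 chaperones and cochaperones of the endoplasmic reticulum (ER): HSPA5, HSP90B1, CALR, CANX, DNAJB9, DNAJB11, DNAJC3, DNAJC10, SDF2L1 and HYOU1. They were taken by symbol from the 58302 genes of the deposited count table, and each was found once and passed the filter on low counts in every fit. RNA-seq had been run on AMO1, an established human multiple myeloma line, in which doxycycline (Dox, 0.2 µg/ml) switches on shRNAs against ERN1, the gene of IRE1 (shIRE1 clones 1 and 3), or against XBP1 (shXBP1 clones 1 and 18). Each of the 4 clones was sampled at 0, 24, 48 and 72 h of Dox in biological triplicate, for 16 groups and 48 libraries. By the labels each clone carries more than 1 shRNA against its gene, and each is a single clone of the line. A clone without Dox is its own control, and because no clone with a control shRNA was analysed here, any effect of Dox or of shRNA production as such is contained in every change below.

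Nascent secretory proteins fold in the ER lumen with the help of BiP, the Hsp70 chaperone encoded by HSPA5, and of its Hsp90 counterpart GRP94, encoded by HSP90B1. J-domain proteins (the DNAJ genes) bring clients to BiP and start its ATP hydrolysis, HYOU1 acts as its nucleotide exchange factor, and SDF2L1 works together with DNAJB11, while calreticulin (CALR) and calnexin (CANX) hold glycoproteins through their sugar chains. These genes are textbook outputs of the unfolded protein response. IRE1 splices XBP1 mRNA, and the spliced form is translated into the transcription factor XBP1s. This factor together with ATF6 acts on ER stress elements in promoters of such genes. Plasma cells, which secrete antibody, depend on this machinery.

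The promoters of the genes are shown first because most of them hold matches to elements at which those factors act. RefSeq windows on GRCh38.p14, running from 250 bases before to 50 bases after each annotated start, were at hand for all 10 genes and were read on both strands. The ER stress element (ERSE) was searched as CCAAT, 9 bases of any kind, then CCACG, which is held by 27 of 35116 promoters (0.0769%) and by 4 of the 10 genes. The stretches below run 5′ to 3′ on the strand of the gene, with the element in capitals. HSP90B1 holds 2 elements, and in CALR and at the second site of HSP90B1 the element lies on the opposite strand.
HSPA5, minus strand, chr9:125241376-125241424: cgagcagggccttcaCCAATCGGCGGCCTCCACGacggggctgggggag
HSP90B1, plus strand, chr12:103930201-103930354: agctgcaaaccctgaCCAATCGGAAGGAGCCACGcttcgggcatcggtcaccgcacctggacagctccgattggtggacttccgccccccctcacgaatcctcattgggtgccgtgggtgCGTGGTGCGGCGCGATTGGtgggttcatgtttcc
CALR, plus strand, chr19:12938369-12938417: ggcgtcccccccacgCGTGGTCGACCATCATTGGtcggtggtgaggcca
CANX, plus strand, chr5:179698763-179698811: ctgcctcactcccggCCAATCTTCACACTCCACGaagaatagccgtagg

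SDF2L1 and HYOU1 hold the related ERSE-II, searched as ATTGGNCCACG, which is found in 19 of the 35116 promoters (0.0541%). It lies once in SDF2L1 and at 2 sites in HYOU1, each time on the opposite strand. The unfolded protein response element (UPRE), searched as TGACGTGG and present in 256 promoters (0.729%), was found in DNAJC10 and in HYOU1, where it overlaps an ERSE-II. DNAJB9 and DNAJC3 hold none of these elements, but like 38.1% of all promoters they hold CCACG, the second box of an ERSE. It is capitalised for DNAJB9, which had the largest fall of the 10 genes (in shIRE1 clone 3, below). DNAJB11 was the one gene of the 10 with no CCACG in its window. Each match is a run of letters, and binding at it was not measured.
SDF2L1, plus strand, chr22:21642099-21642139: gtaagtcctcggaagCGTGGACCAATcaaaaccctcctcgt
HYOU1, minus strand, chr11:119057259-119057408: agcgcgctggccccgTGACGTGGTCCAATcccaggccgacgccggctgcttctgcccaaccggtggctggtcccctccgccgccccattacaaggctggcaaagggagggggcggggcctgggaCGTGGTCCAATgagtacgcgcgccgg
DNAJC10, plus strand, chr2:182716117-182716154: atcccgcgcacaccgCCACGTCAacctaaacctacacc
DNAJB9, plus strand, chr7:108569785-108569846: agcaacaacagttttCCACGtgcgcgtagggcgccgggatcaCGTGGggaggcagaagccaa

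**Figure D1:**
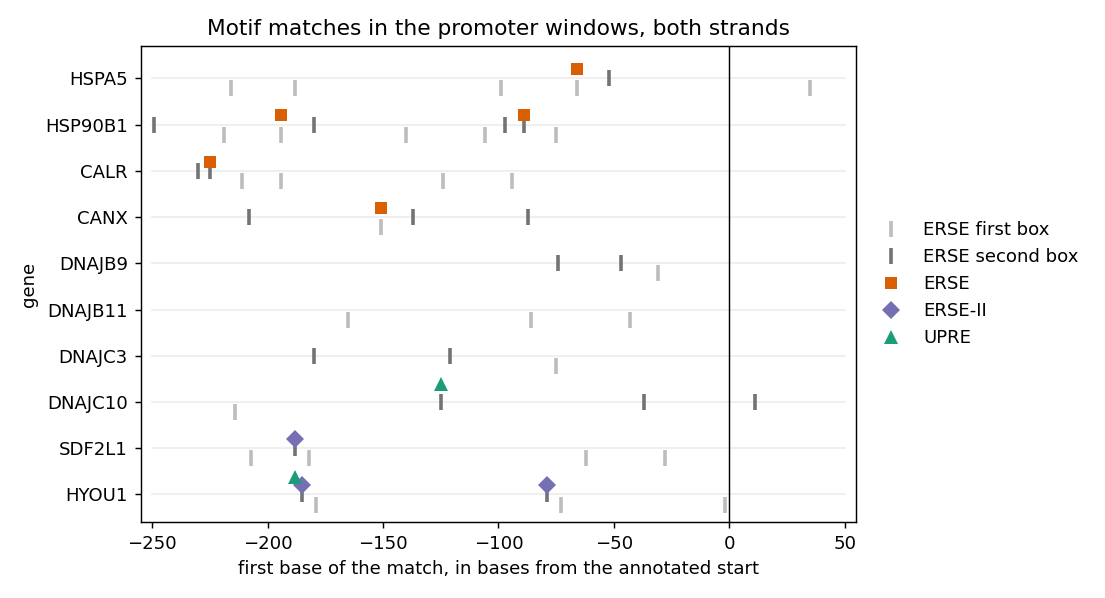
Matches to the ER stress motifs in the promoter windows of the 10 genes. The x axis is the first base of each match, in bases from the annotated start, with both strands shown, and each row is a gene. An ERSE (orange squares) is seen in HSPA5, HSP90B1, CALR and CANX, an ERSE-II (purple diamonds) in SDF2L1 and HYOU1, and a UPRE (green triangles) in DNAJC10 and HYOU1.

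The libraries held between 19177855 and 40767202 counts (median 30776246.5), so 1 count was at most 0.0521 CPM (the count of a gene scaled to a library of fixed size, with TMM factors). Together the 10 genes took 0.632% to 1.59% of the counts of a library. Of the 8 plasma cell markers examined, SDC1, the gene of CD138, ran from 5126 to 15195 CPM over the 48 libraries and JCHAIN from 967 to 7204 CPM. Of 5 B cell markers, PAX5 had no count in 43 libraries and CD22 none in 46, and MS4A1 ran from 0.0771 to 2.31 CPM. In each shIRE1 clone MS4A1 rose and BACH2 fell between 0 and 72 h, and the sum of the 5, nearly all of it BACH2, ran from 47.0 to 58.7 CPM in the shIRE1 libraries at 0 h and from 39.6 to 46.3 CPM at 72 h. Of 4 T and NK cell markers, CD3D had no count in 42 libraries and CD2 none in 47, but CD3E rose in both shIRE1 clones, and the sum of the 4 ran from 5.49 to 8.52 CPM in the shIRE1 libraries at 0 h and from 13.8 to 16.8 CPM at 72 h, against 4.97 to 12.3 and 6.21 to 12.8 CPM in the shXBP1 libraries. The 4 epithelial and stromal markers summed to 0.611 to 1.22 CPM in the shIRE1 libraries at 0 h and 1.57 to 2.88 CPM at 72 h, with KRT8 higher in both clones and COL1A1 in clone 3, and the 4 myeloid markers to at most 0.981 CPM in any library. The summed plasma cell markers ran from 13847 to 18606 CPM in the shIRE1 libraries at 0 h and from 7397 to 9615 CPM at 72 h, against 17249 to 20732 and 13039.7 to 15087 CPM in the shXBP1 libraries. Between 0 and 72 h of Dox 6 of the 8 fell and 1 rose in shIRE1 clone 1, 8 fell in clone 3, 2 fell and 4 rose in shXBP1 clone 1 and 4 fell in clone 18. Of all genes tested 63.6%, 60.2%, 33.6% and 9.96% changed in these clones at an adjusted p under 0.05, and 31.1%, 30.5%, 16.8% and 5.55% were lower. The 72 h libraries labelled shIRE1 clone 1 carry markers of clone 3 (below). The part of the cell type markers in the changes below was not tested. In bulk libraries fewer cells of a type and less RNA per cell cannot be told apart.

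The targeted genes were lower in the clones meant to lose them. XBP1 fell from 167 ± 7.69 CPM (mean ± SD, n = 3) to 34.1 ± 1.07 CPM at 72 h in shXBP1 clone 1 and from 169 ± 8.17 to 37.6 ± 4.99 CPM in clone 18. By label, ERN1 fell from 432 ± 17.0 to 125 ± 2.93 CPM in shIRE1 clone 3 and from 153 ± 2.34 to 103 ± 1.42 CPM in clone 1. The 72 h libraries labelled shIRE1 clone 1 carry clone 3 markers (below), so the size of the changes given here for that clone is uncertain. XBP1 counts, which do not separate the spliced form, also fell in both shIRE1 clones, by 0.38 and 0.86 on the log2 scale. ERN1 rose by 0.72 in shXBP1 clone 1 and fell by 0.29 in clone 18.

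Some libraries went against their labels. In the library labelled shXBP1 clone 18, 72 h, replicate 3, 277 of 283 genes that separate the shXBP1 clones were nearer to clone 1. Of 6 genes that separate the shIRE1 clones and that Dox moved little by 24 h, 5 or 6 were nearer to clone 3 in the 3 libraries labelled shIRE1 clone 1, 72 h, and all 6 were nearer to clone 1 in the 3 libraries labelled shIRE1 clone 3, 48 h. The labels were kept. The calls of the 10 genes from 0 h in these shIRE1 groups are also given against the 0 h libraries of the other clone, and the calls of the 10 genes in shXBP1 clone 18 also without that 1 library. Values of the targeted genes, the markers and the genes of other lists, and changes from 24 to 72 h, are given by label alone. Differences between the shIRE1 clones are given at 0 and 24 h only.

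Without Dox HSP90B1 had the highest level per length of transcript of the 10 genes, and DNAJB9, DNAJC3, DNAJC10 and SDF2L1 were the 4 lowest. Levels between genes are compared as CPM per kilobase of the MANE Select transcript. In shIRE1 clone 1 at 0 h, HSP90B1 came first with 1781 ± 52.5 CPM per kilobase, followed by CALR (1152 ± 36.7), CANX (616 ± 21.1), HSPA5 (451 ± 11.0) and HYOU1 (283 ± 8.45; each mean ± SD, n = 3). Of the J-domain genes, DNAJB11 stood at 146 ± 1.49 CPM per kilobase, DNAJC3 at 39.7 ± 1.54, DNAJB9 at 16.8 ± 0.343 and DNAJC10, whose transcript is 20144 bases long, at 11.7 ± 0.574. SDF2L1, with the shortest transcript of the 10 (825 bases), had 43.3 ± 5.70. The order HSP90B1, CALR, CANX, HSPA5, HYOU1 and DNAJB11 was the same in the mean levels of all 4 clones at 0 h, and in shIRE1 clone 3 CALR (545 ± 17.5) and CANX (540.3 ± 10.1) were within 1 SD of each other, as were HSPA5 (198 ± 8.47) and HYOU1 (194 ± 8.03).

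**Figure D2:**
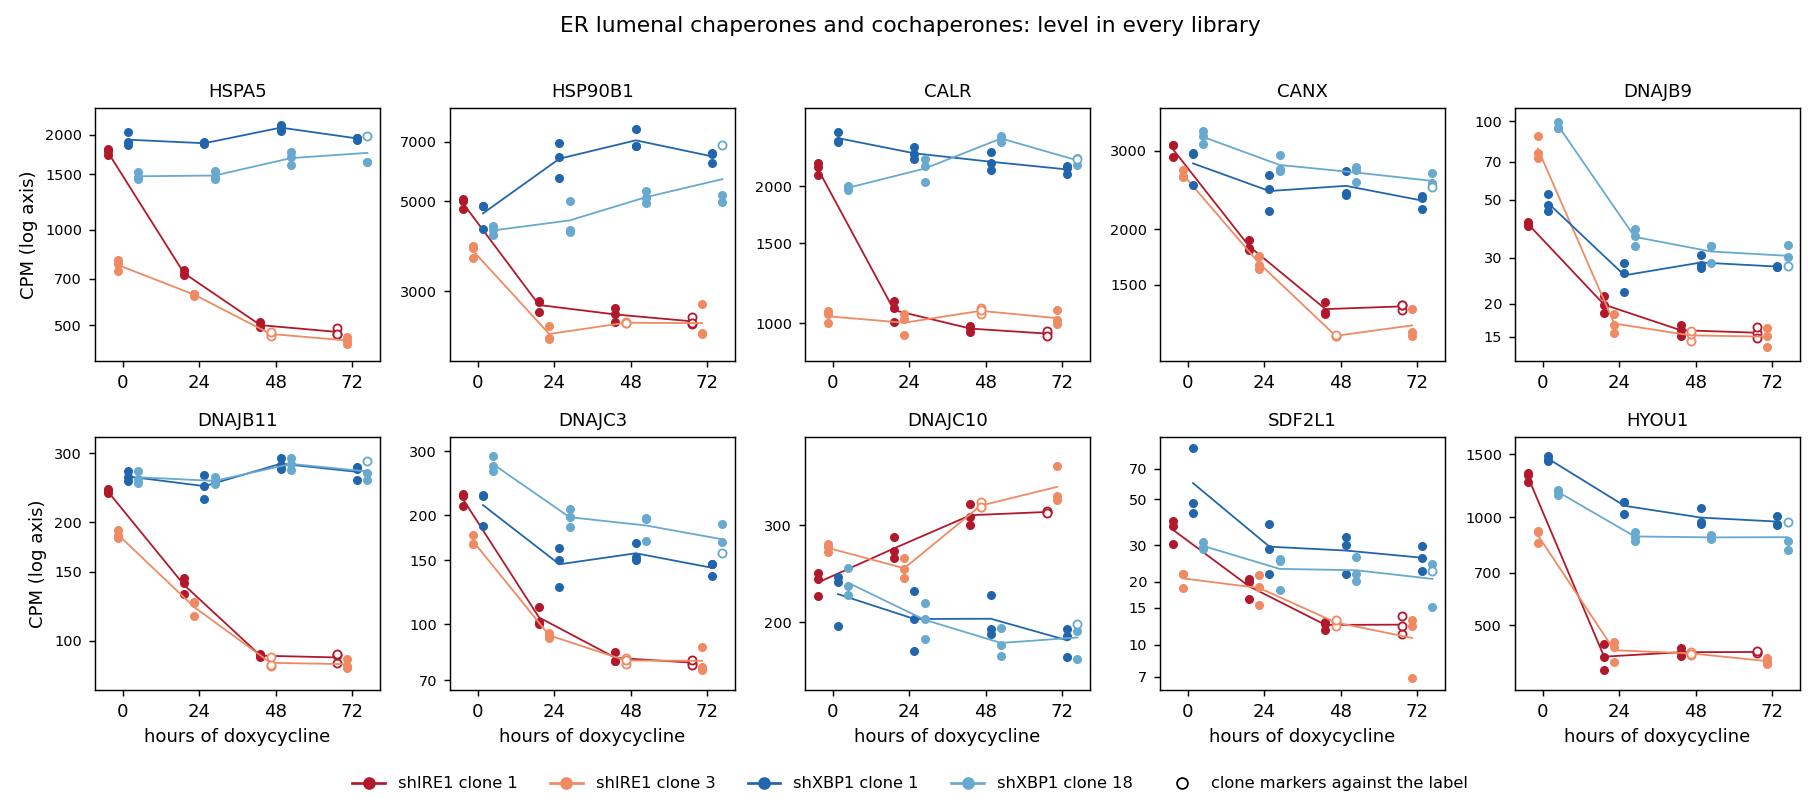
Level of each of the 10 genes in every library, in CPM on log axes, against hours of Dox. Points are libraries, lines join the means of 3, red and orange are the shIRE1 clones, blue and light blue the shXBP1 clones, and open points mark the 7 libraries whose clone markers went against the label. At 72 h HSPA5 was at most 490.4 CPM in the 6 shIRE1 libraries and at least 1637 CPM in the 6 shXBP1 libraries. The shIRE1 clones start apart in HSPA5, CALR and DNAJB9 and were closer in these genes at 24 h. At 72 h the clones are not compared, because the open shIRE1 points there carry markers of the other clone.

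The first question was what silencing of IRE1 did to BiP and to the genes around it. In shIRE1 clone 1 every gene but DNAJC10 fell at 24, 48 and 72 h, and HSPA5 had the largest change of the 10 at 48 h (−1.83, SE 0.033). Its level was 1723, 1809 and 1772 CPM in the 3 libraries at 0 h, 725, 746 and 718 CPM at 24 h, 510.0, 496 and 493 CPM at 48 h and 469, 490.4 and 468 CPM at 72 h. The libraries of each Dox time lay below all 3 of the 0 h libraries, and those of 48 and 72 h below those of 24 h. The log2 change was −1.29 (SE 0.033, adjusted p = 3.11e-16) at 24 h by edgeR's quasi-likelihood test and −1.90 (SE 0.034, adjusted p = 5.9e-18) at 72 h by label. The 72 h libraries carry clone 3 markers, and against the 0 h libraries of clone 3 the change was −0.73, where DNAJB9 fell furthest (−2.36). An adjusted p under 0.05 is a call in what follows. All 10 genes were called at each time (1 higher and 9 lower), where 61.4%, 65.4% and 63.6% of the 17154 genes tested were called at 24, 48 and 72 h and 29%, 31.5% and 31.1% were called lower. The median log2 change of the 10 genes was −0.98, −1.37 and −1.40, and that of all genes tested was 0.042, 0.027 and 0.018.

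HYOU1, the exchange factor and partner of BiP, had the steepest early fall in clone 1. It stood at 1259, 1334 and 1314 CPM at 0 h and at 375, 408 and 442 CPM at 24 h, with a log2 change of −1.69 (SE 0.046), and stayed at that level, with −1.64 (SE 0.047) at 72 h. The other genes moved in 2 ways after 24 h. HSPA5, CANX, DNAJB9, DNAJB11, DNAJC3 and SDF2L1 fell further, DNAJB11 for example from 145, 140.2 and 132 CPM at 24 h to 91.6, 90.9 and 92.8 CPM at 48 h, while HSP90B1 and CALR changed by −0.12 and −0.16 from 24 to 72 h. Between 24 and 48 h 8 genes were called (7 lower, 1 higher) where 30.3% of all genes were, and between 24 and 72 h 9 genes were (8 lower, 1 higher) where 29.1% were. CALR at 48 h (−0.12 against 24 h) lost its call without 24 h replicate 2 or 3 or 48 h replicate 3 (−0.11, −0.087 and −0.11), and HSP90B1 at 72 h (−0.12 against 24 h) without 24 h replicate 2 or 72 h replicate 1 (−0.12 in each). HYOU1 was called higher than at 24 h only without 24 h replicate 3 (0.12 at 48 h and 0.11 at 72 h).

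The J-domain cochaperones did not move as a block. DNAJC3 (P58IPK), which also inhibits the kinase PERK, fell from 228, 226 and 212 CPM at 0 h to 78.0, 77.1 and 79.5 CPM at 72 h in clone 1 (−1.51, SE 0.049). DNAJB9 (ERdj4), which returns IRE1 to its inactive state by recruiting BiP to it, fell from 39.6, 41.2 and 40.8 CPM to 15.5, 16.3 and 14.8 CPM (−1.39, SE 0.065). In both genes the groups did not overlap. DNAJC10 (ERdj5), a disulfide reductase that helps to clear misfolded proteins, went the other way, from 245, 239.6 and 223 CPM to 317, 319 and 316 CPM, and all its 72 h libraries lay above all its 0 h libraries (0.42, SE 0.045, adjusted p = 1.53e-07). It carries a UPRE but no ERSE or ERSE-II, as shown above. HYOU1, which fell, also carries a UPRE, and DNAJB9, DNAJB11 and DNAJC3, which fell, hold no ERSE or ERSE-II either. Any relation of these elements to the changes was not tested. SDF2L1, the partner of DNAJB11, fell from 30.4, 37.3 and 39.4 CPM to 13.8, 11.3 and 12.3 CPM (−1.53, SE 0.10).

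The glycoprotein chaperones and GRP94 fell as well. HSP90B1 stood at 5018, 5058 and 4788 CPM at 0 h and 2492, 2587 and 2509.8 CPM at 72 h in clone 1 (−0.98, SE 0.037), CALR at 2114, 2251 and 2206 CPM and 949, 959 and 938 CPM (−1.22, SE 0.037), and CANX at 3090.1, 3087 and 2909 CPM and 1321, 1352 and 1354 CPM (−1.18, SE 0.038). None of the 72 h libraries reached a 0 h library in any of the 3 genes. Because the libraries labelled clone 1 at 72 h carry clone 3 markers, they were also set against clone 3 at 0 h. All 10 genes were still called in the same directions, where 46.5% of genes were, but the falls were smaller for HSPA5 (−0.73), CALR (−0.15), HSP90B1 (−0.61), CANX (−1.01) and SDF2L1 (−0.77) and larger for DNAJB9 (−2.36), and DNAJC10 was at 0.19 (adjusted p = 0.0387, edgeR). The calls at 24 and 48 h of clone 1 do not rest on those libraries.

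In shIRE1 clone 3, 7 of the 10 genes fell at every time as they did in clone 1, but by different amounts. Here 8 genes were called lower at 24 h, where 46.2% of the 17204 genes tested were called and 23.3% called lower. At 48 h and 72 h 8 were lower and 1 higher, where 63.2% and 60.2% were called and 31.6% and 30.5% called lower. The median log2 change of the 10 genes was −0.66, −0.94 and −1.06 at the 3 times, against 0.028, 0.019 and 0.015 over all genes tested. DNAJB9 fell furthest, from 87.4, 72.3 and 75.5 CPM at 0 h to 18.3, 15.5 and 16.7 CPM at 24 h (−2.25, SE 0.088, adjusted p = 6.21e-11) and 15.1, 13.7 and 16.2 CPM at 72 h (−2.42, SE 0.089), with no overlap between the groups. CANX, DNAJB11, DNAJC3, HYOU1, HSP90B1 and HSPA5 fell at all 3 times, with changes at 72 h from −1.20 (HYOU1) to −0.63 (HSP90B1).

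CALR did not pass the test in shIRE1 clone 3 at any time. Its level was 999, 1046 and 1063 CPM at 0 h, 941, 1021 and 1046 CPM at 24 h and 1016, 995 and 1067 CPM at 72 h, so that the groups overlap. The log2 change was −0.071 (SE 0.048, adjusted p = 0.248) at 24 h and −0.051 (SE 0.048, adjusted p = 0.383) at 72 h. Its 0 h libraries in clone 3 were at the level that clone 1 had after 24 h of Dox (1005, 1082 and 1117 CPM). SDF2L1 was at 21.9, 18.7 and 21.8 CPM at 0 h and 15.6, 18.9 and 21.6 CPM at 24 h, which was not called (−0.18, SE 0.17, adjusted p = 0.427), and at 12.3, 13.1 and 6.89 CPM at 72 h, below every 0 h library (−0.98, SE 0.18, adjusted p = 0.000238).

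HSPA5 in clone 3 went from 739.7, 779.9 and 806 CPM at 0 h to 618, 627 and 628 CPM at 24 h and 437, 446 and 457 CPM at 72 h (−0.83, SE 0.046, adjusted p = 5.32e-10). The groups did not overlap, although the 0 h libraries started below those of clone 1 by more than their spread. DNAJC10 again rose, from 268, 274 and 277 CPM to 333, 339 and 385 CPM (0.33, SE 0.055, adjusted p = 9.25e-05), after a value of −0.15 at 24 h (adjusted p = 0.0397, edgeR). That 24 h call was lost without 0 h replicate 2 or 3 or without 24 h replicate 2 or 3 (−0.11 to −0.16). The libraries labelled clone 3 at 48 h, which carry clone 1 markers, were also set against clone 1 at 0 h. All 10 genes were then called, where 64.9% of genes were, and CALR, at 0.0035 against its own label, was at −1.05, HSPA5 at −1.92 and DNAJB9 at −1.42.

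Between 24 and 72 h in clone 3, 5 genes fell further and DNAJC10 rose, where 33.5% of genes were called. DNAJB11 went from 125, 116 and 125 CPM to 86.5, 85.3 and 90.1 CPM (−0.49, SE 0.050), HSPA5 by −0.50 and CANX by −0.48, while DNAJB9 (−0.18) was not called. HYOU1 was called without 24 h replicate 1 (−0.16). Over both shIRE1 clones taken as 12 libraries per pair of times, 6 genes (HSP90B1, CANX, DNAJB9, DNAJB11, DNAJC3 and HYOU1) had every 24 h library below every 0 h library. At 48 and 72 h HSPA5 and SDF2L1 joined them, DNAJC10 had every library above, and CALR overlapped. This rests on no choice of which clone a library belongs to, but at 48 and 72 h it rests on the labelled hours. Of the 18445 genes tested 11.8%, 16.7% and 16.3% had every library below at 24, 48 and 72 h. At 48 and 72 h 18.3% and 17.5% had every library above.

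**Figure D3:**
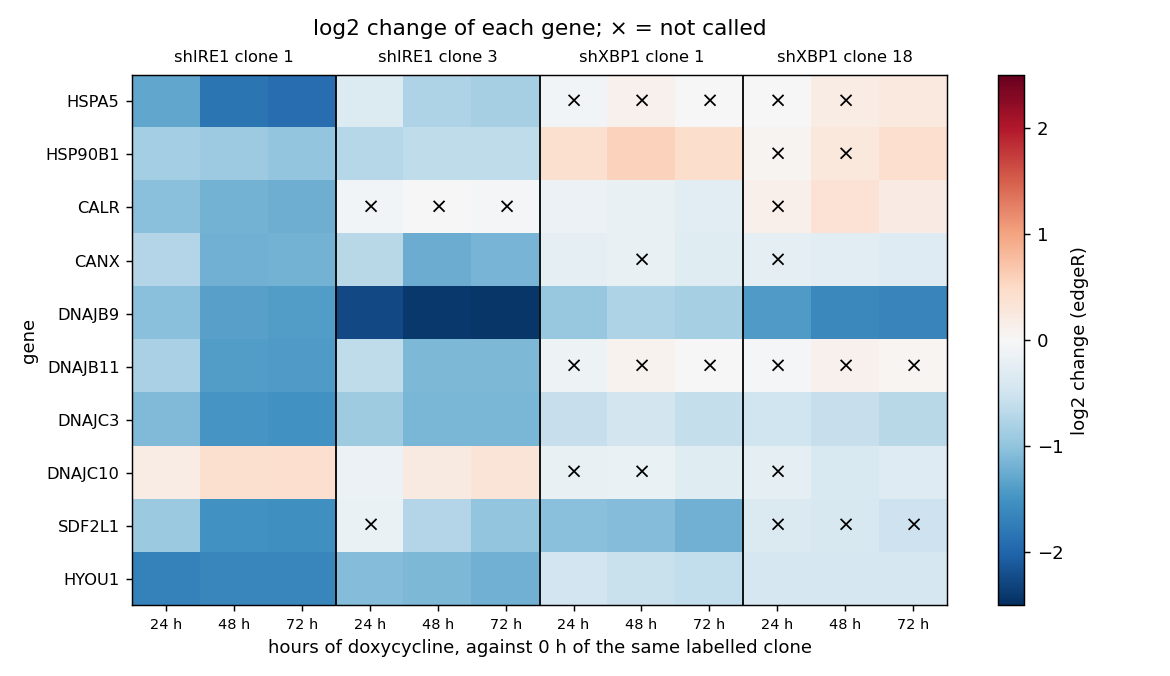
log2 change of each gene against 0 h of the same labelled clone, by edgeR, as a colour from blue (lower) to red (higher), with gene by row and time by column, and a cross where the adjusted p was 0.05 or more. The 2 shIRE1 clones on the left are blue in most rows, with DNAJC10 red from 24 h in clone 1 and from 48 h in clone 3 and CALR crossed in clone 3, and in the shXBP1 clones on the right DNAJB9, DNAJC3 and HYOU1 are blue at every time.

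The second question was whether silencing of XBP1, which lies downstream of IRE1, moved the same genes. In both shXBP1 clones DNAJB9, DNAJC3 and HYOU1 fell at all 3 times, whereas DNAJB11 was not called at any time and HSP90B1 rose in clone 1 at all 3. DNAJB9 fell from 45.2, 52.8 and 47.9 CPM at 0 h to 28.7, 22.3 and 26.2 CPM at 24 h in clone 1 (−0.96, SE 0.089, adjusted p = 2.54e-05). In clone 18 it fell from 94.2, 99.5 and 94.3 to 38.6, 36.5 and 33.3 CPM (−1.42, SE 0.086, adjusted p = 2.23e-06) and was at −1.65 at 72 h. In neither clone did the 24 h libraries overlap those of 0 h.

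In clone 1, 7 genes were called at 24 h (6 lower, 1 higher), where 26.7% of the 16603 genes tested were called and 12.8% called lower. At 48 h 6 were (5 lower, 1 higher), where 32% were called and 15.5% called lower, and at 72 h 8 were (7 lower, 1 higher), where 33.6% and 16.8% were. The median log2 change of the 10 genes was −0.22, −0.19 and −0.31, and that of all genes −0.013, −0.0045 and −0.012. With only the 6 compared libraries in the fit, 4 genes were called at 24 h. The shares above are those of the fit of the whole clone, and the share in this smaller fit is not given here. HYOU1 fell from 1488, 1449 and 1440.0 CPM at 0 h to 954, 958 and 1007 CPM at 72 h (−0.61, SE 0.051, adjusted p = 8.13e-06), with all 72 h libraries below all 0 h libraries, and DNAJC3 from 186, 228 and 225 to 136, 147 and 146 CPM (−0.60, SE 0.093, adjusted p = 0.00055).

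HSP90B1, the gene of GRP94, was the one gene of the 10 that rose in shXBP1 clone 1. It was at 4273, 4859 and 4866 CPM at 0 h, 6962, 5699 and 6425 CPM at 24 h, 6841, 7514 and 6829 CPM at 48 h and 6212, 6572 and 6549 CPM at 72 h. Every library with Dox lay above every library without, and the log2 change was 0.41 (SE 0.072, adjusted p = 0.00165) at 24 h and 0.58 (SE 0.072, adjusted p = 0.000159) at 48 h. HSPA5, whose promoter carries the same element, was not called at any time in that clone, with −0.074 (SE 0.039, adjusted p = 0.179), 0.11 (SE 0.039, adjusted p = 0.0515) and −0.013 (SE 0.039, adjusted p = 0.826) at 24, 48 and 72 h. Without 0 h replicate 1 it was called at 48 h, at 0.15. DNAJB11, without a CCACG, was at 269.8, 260.2 and 255 CPM at 0 h and 257, 273 and 277 CPM at 72 h, with overlapping groups and no call at any time in either shXBP1 clone.

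CALR fell slightly in clone 1, from 2636, 2506 and 2522 CPM to 2125, 2194 and 2220.4 CPM (−0.26, SE 0.043, adjusted p = 0.00105). Its call at 24 h (−0.15) was lost without 0 h replicate 1 or 3 or 24 h replicate 1 (−0.11, −0.15 and −0.11). CANX was called at 24 h (−0.24, SE 0.077, adjusted p = 0.0353) and 72 h (−0.30, SE 0.077, adjusted p = 0.0108), and the former was lost without 0 h replicate 2 or 3 or 24 h replicate 2 or 3 (−0.18 to −0.24). At 48 h it was called without 0 h replicate 1 (−0.26). DNAJC10 was called at 72 h alone (−0.31, SE 0.10, adjusted p = 0.0328), and lost the call without 0 h replicate 2 or 3 or without any 1 of the 72 h libraries (−0.25 to −0.33). Same-numbered libraries of this clone deviated together at 0 and 72 h, and with the replicate number as a block DNAJC10 was not called (−0.30, adjusted p = 0.0559, edgeR).

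SDF2L1 in clone 1 rested on 1 library in particular. Its 0 h levels were 88.2, 48.0 and 42.6 CPM and those at 24 h 21.9, 37.8 and 28.9 CPM, so that replicate 1 at 0 h lay far above the other two. The log2 change was −1.04 (SE 0.27, adjusted p = 0.0144) at 24 h, −1.09 (SE 0.27) at 48 h and −1.21 (SE 0.27) at 72 h. Without 0 h replicate 1 the values were −0.64 at 24 h, which was not called, −0.69 at 48 h and −0.81 at 72 h, and the 24 h call was also lost without 24 h replicate 1 or 3 (−0.85 and −1.02). The 48 h call was lost without 48 h replicate 2 (−0.94).

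In shXBP1 clone 18, 3 genes were called at 24 h, namely DNAJB9, DNAJC3 and HYOU1, all lower, where 1.59% of the 16860 genes tested were called and 1.3% called lower. At 48 h 6 were (5 lower, 1 higher), where 5.78% were called and 3.5% called lower, and at 72 h 8 were (5 lower, 3 higher), where 9.96% and 5.55% were. The median log2 change of the 10 genes was −0.22, −0.32 and −0.33, and that of all genes was 0.0020, −0.0013 and −0.0071. HYOU1 went from 1191, 1154 and 1185 CPM to 861, 883 and 909.9 CPM at 24 h (−0.42, SE 0.059, adjusted p = 0.00229) and DNAJC3 from 265, 291 and 273 CPM to 208, 198 and 186 CPM (−0.49, SE 0.080, adjusted p = 0.0056). The groups did not overlap in either gene, and the 24 h call of DNAJC3 was lost without 0 h replicate 2 or 24 h replicate 3 (−0.45 and −0.44). With only the 6 compared libraries in the fit, 5 genes were called at 24 h and 4 at 72 h. The share of all genes called in these smaller fits is not given here.

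At 72 h the rises in clone 18 leaned on single libraries. HSPA5 was at 1448, 1522 and 1467 CPM at 0 h and 1643, 1637 and 1982 CPM at 72 h, where replicate 3, the library nearer to clone 1, was the highest. The change was 0.25 (SE 0.068, adjusted p = 0.036), and without that library it was 0.16 (adjusted p = 0.0571, edgeR). HSP90B1 (4125, 4340.3 and 4241 and 4965, 5164 and 6871 CPM) had its highest value in the same library. Its change was 0.42 (SE 0.10, adjusted p = 0.0216), and 0.27 (adjusted p = 0.0224) without it. CALR changed by 0.20 (SE 0.052, adjusted p = 0.028) at 72 h and 0.35 (SE 0.052, adjusted p = 0.00152) at 48 h. Leaving out any 1 of the 0 h libraries ended the 72 h calls of HSPA5 (0.25 to 0.27), HSP90B1 (0.42 to 0.44) and CALR (0.20 to 0.23) and left 5, 4 and 4 of the 10 genes called. The share of all genes called in these fits is not given here, so these counts are not read as a result about the 10 genes.

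Without the library nearer to clone 1, shXBP1 clone 18 had 4 genes called at 24 h, 8 at 48 h (5 lower, 3 higher) and 7 at 72 h (5 lower, 2 higher), where 4.78%, 12.9% and 7.57% of all genes were called. CANX was then called at 24 h (−0.22, adjusted p = 0.0186), and HSPA5 (0.18) and HSP90B1 (0.26) at 48 h. CANX was called at 48 h (−0.27) and 72 h (−0.33), and the 48 h call was lost without any 1 of the 0 h libraries (−0.25 to −0.29). DNAJC10 was called at 48 h (−0.37), a call lost without 0 h replicate 2 or 3 or 48 h replicate 1 (−0.32 to −0.37), and at 72 h (−0.33), lost without 0 h replicate 2 or 3 (−0.28 and −0.32). SDF2L1 was not called at any time in this clone (−0.52, adjusted p = 0.0639 at 72 h, edgeR, with all libraries). Its libraries at 24, 48 and 72 h nevertheless all lay below its 0 h libraries, which ran from 28.8 to 31.2 CPM, against 15.2 to 24.4 CPM at 72 h. At 72 h SDF2L1 was called with no filter, by DESeq2 and without 72 h replicate 1, and at 48 h with no filter and with only the 6 compared libraries.

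Between 24 and 72 h none of the 10 genes was called in clone 1 (edgeR, 0.205% of all genes called, 3 of the 10 at an unadjusted p under 0.05, none by DESeq2) or in clone 18 (0.125% called, 4 of the 10 at an unadjusted p under 0.05, 2 by DESeq2). Over both clones DNAJB9 and HYOU1 had every library at 24, 48 and 72 h below every 0 h library, and HSP90B1 had every library above at 48 and 72 h. The same held upward for DNAJB11 at 48 h, which edgeR did not call in either clone. Of all 18445 genes, 0.873%, 1.49% and 2.59% had every library below at 24, 48 and 72 h and 1.62% and 2.18% every library above at 48 and 72 h. Without 72 h replicate 1 of clone 18, HSPA5 (0.29) and HSP90B1 (0.43) were called between 24 and 72 h.

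The difference between the responses to the shRNAs was tested in 1 model of all 48 libraries, as the mean response of the shIRE1 clones minus that of the shXBP1 clones. Its SE and p-values measure the spread of libraries within a clone and time. They do not measure the spread between clones, of which each shRNA had 2. HSPA5, HSP90B1, CALR, CANX, DNAJB9, DNAJB11, DNAJC3 and HYOU1 fell more, or rose less, in the shIRE1 clones at 24, 48 and 72 h, and DNAJC10 was higher. So 9 genes were called at each time (8 lower, 1 higher), where 38.7%, 56.9% and 55.3% of the 18445 genes tested were called and 19.7%, 28% and 27.4% were called lower. The median difference of the 10 genes was −0.53, −0.84 and −0.77, against 0.036, 0.041 and 0.039 over all genes. HSPA5 differed by −0.79 (SE 0.045, adjusted p = 8.25e-18) at 24 h and −1.48 (SE 0.045, adjusted p = 1.11e-26) at 72 h, and DNAJB11 by −0.65 (SE 0.047) and −1.30 (SE 0.047). HSP90B1 had the largest 24 h difference of the 10, −1.03 (SE 0.078, adjusted p = 4.14e-14), and reached −1.23 (SE 0.079) at 72 h.

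DNAJC10 differed by 0.22 (SE 0.077, adjusted p = 0.0187) at 24 h, which was lost without shXBP1 clone 1, 24 h, replicate 2 (0.17), and by 0.69 (SE 0.077, adjusted p = 5.56e-10) at 72 h. SDF2L1 was the gene without a call, at 0.15 (SE 0.21, adjusted p = 0.599), −0.39 (SE 0.21, adjusted p = 0.112) and −0.39 (SE 0.21, adjusted p = 0.124). Without shXBP1 clone 1, 0 h, replicate 1 it was called at 48 h (−0.60) and 72 h (−0.59). The means at 48 and 72 h contain the shIRE1 libraries whose markers went against their label. With shIRE1 clone 1 alone at 48 h 9 genes were called, where 47.6% of all genes were, HSPA5 at −1.98, but DNAJB9 was not (−0.18, adjusted p = 0.175, edgeR). With clone 3 alone at 72 h 8 were, where 53.3% were, HSPA5 at −0.94, but CALR was not (−0.019, adjusted p = 0.774, edgeR). At 24 h, DNAJC10 was not called with clone 3 alone (0.058), and SDF2L1 was called at 48 h with clone 1 alone (−0.79). The differences of CALR and DNAJB9 depend on which clones are set against each other. CALR differed by −0.56 (SE 0.041) at 24 h with both shIRE1 clones, by −1.05 with clone 1 alone and by −0.069 (adjusted p = 0.298) with clone 3 alone. DNAJB9 differed by −0.47 (SE 0.085) with both, by 0.13 (adjusted p = 0.343, edgeR) with clone 1 alone and by −1.07 with clone 3 alone. No call of the difference changed when replicate 3 of shXBP1 clone 18 at 72 h was left out.

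**Figure D4:**
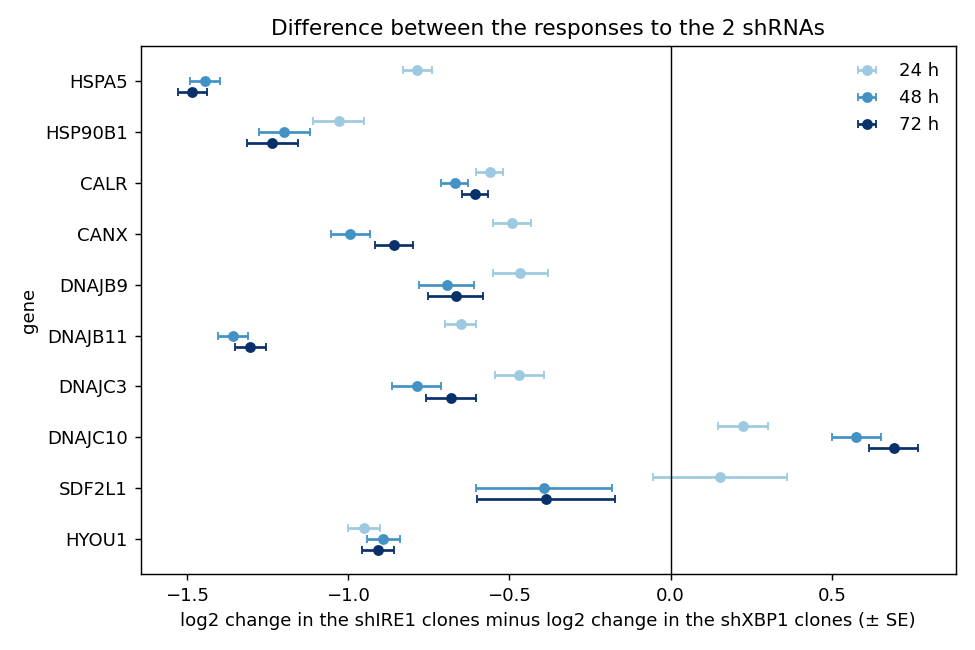
Difference between the log2 changes in the shIRE1 and the shXBP1 clones for each gene, with bars of ± 1 SE, in 3 shades of blue for 24, 48 and 72 h. The bars reflect the spread of libraries, not that of clones. Points left of 0 are genes that fell more, or rose less, under shIRE1: HSPA5 and DNAJB11 moved from between −0.65 and −0.79 at 24 h to between −1.30 and −1.48 at 72 h, HYOU1 stayed between −0.89 and −0.95, and DNAJC10 lay right of 0.

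The clones of an shRNA were also compared with each other, since they differed before any Dox. At 0 h all 10 genes were called between the shIRE1 clones, where 40.6% of the 18445 genes were, with 8 higher and 2 lower in clone 1. HSPA5 was higher by 1.17 (SE 0.046, adjusted p = 1.72e-22) and CALR by 1.06 (SE 0.042, adjusted p = 1.73e-22) on the log2 scale, while DNAJB9 was lower by 0.97 (SE 0.084). ERN1 at 0 h was lower in clone 1 too, with 153 ± 2.34 CPM against 432 ± 17.0 CPM in clone 3. The calls of CANX (0.17) and DNAJC10 (−0.23) at 0 h were lost without single libraries, namely clone 1 replicate 1 or clone 3 replicate 1 for CANX (0.14 and 0.16) and clone 1 replicate 3 for DNAJC10 (−0.19).

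By 24 h of Dox 2 of the 10 genes still differed in level, HSPA5 (0.21, SE 0.045, adjusted p = 0.00512) and DNAJB11 (0.17, SE 0.047, adjusted p = 0.0332), where 3.45% of all genes did. DNAJB11 was not called without clone 1 replicate 1 or 2 or clone 3 replicate 2 or 3 (0.13 to 0.18). Without clone 3, 24 h, replicate 1, a library nearer to clone 1 at 24 h over all genes (r = 0.997) than to its own group (r = 0.993), DNAJB9 (0.30) and HSP90B1 (0.26) were called as well. The responses at 24 h differed for 6 genes, where 28.2% of all genes were called. Clone 1 fell more in HSPA5 (−0.96, SE 0.064, adjusted p = 1.23e-14), CALR (−0.99, SE 0.058, adjusted p = 6.49e-16), HYOU1 (−0.60, SE 0.071) and DNAJB11 (−0.17, SE 0.067), less in DNAJB9 (1.20, SE 0.12, adjusted p = 7.02e-10), and was higher in DNAJC10 (0.33, SE 0.11).

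Of these response calls, that of DNAJB11 (adjusted p = 0.048, edgeR) was lost without any 1 of clone 1, 0 h, replicate 1, clone 1, 24 h, replicate 3, clone 3, 0 h, replicates 2 and 3, and clone 3, 24 h, replicates 1 and 3 (−0.15 to −0.18). That of DNAJC10 was lost without clone 1, 0 h, replicate 3, clone 1, 24 h, replicate 1 or clone 3, 24 h, replicate 3 (0.28 in each). SDF2L1 was called without clone 1, 0 h, replicate 1 (−0.85) or clone 3, 24 h, replicate 1 (−0.87).

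The shXBP1 clones differed at 0 h in 7 of the 10 genes (4 higher and 3 lower in clone 1), where 51.3% of all genes were called. SDF2L1 was higher in clone 1 by 0.99 (SE 0.21, adjusted p = 0.000101), or by 0.63 without clone 1 replicate 1, and HSPA5 by 0.38 (SE 0.045), and DNAJB9 was lower by 0.99 (SE 0.083), which was again the clone with less ERN1 (188 ± 6.00 against 411 ± 2.17 CPM), a relation that was not tested. The call of CANX at 0 h (−0.21) was lost without clone 1 replicate 1 (−0.11), and HSP90B1 was called without it (0.22). Their responses differed in 3 genes at each time, where 17.1%, 24.1% and 24.6% of all genes were called at 24, 48 and 72 h. DNAJB9 fell less in clone 1, by 0.49 (SE 0.12, adjusted p = 0.00323) at 24 h and 0.85 (SE 0.12) at 72 h, and CALR was lower in clone 1, at −0.26 (SE 0.058), −0.53 (SE 0.058, adjusted p = 9.73e-09) and −0.43 (SE 0.058).

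HSP90B1 rose more in shXBP1 clone 1 at 24 h (0.36, SE 0.11, adjusted p = 0.0205) and 48 h (0.33, SE 0.11, adjusted p = 0.0252), but the calls were lost without any 1 of 5 libraries at 24 h (0.28 to 0.33) and any 1 of 6 libraries at 48 h (0.25 to 0.32). These were clone 1, 0 h, replicate 1 and clone 18, 0 h, replicate 2 at both times, clone 1 replicate 1 and clone 18 replicates 2 and 3 of 24 h, and clone 1 replicate 2, clone 18 replicates 1 and 3 of 48 h and clone 18, 0 h, replicate 3. At 72 h HSPA5 differed (−0.23, SE 0.064, adjusted p = 0.00622). SDF2L1 was called at 24 h without clone 1, 0 h, replicate 3 (−0.86) or clone 1, 24 h, replicate 2 (−0.90), and at 48 h without clone 1, 0 h, replicate 2 or 3 (−0.86 and −0.90). At 72 h it was called without clone 1, 0 h, replicate 2 or 3 (−0.83 and −0.88) or clone 18, 72 h, replicate 2 (−0.86), and HYOU1 without clone 1, 0 h, replicate 2, clone 18, 0 h, replicate 1 or clone 18, 72 h, replicate 1 or 2 (−0.20 to −0.23).

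**Figure D5:**
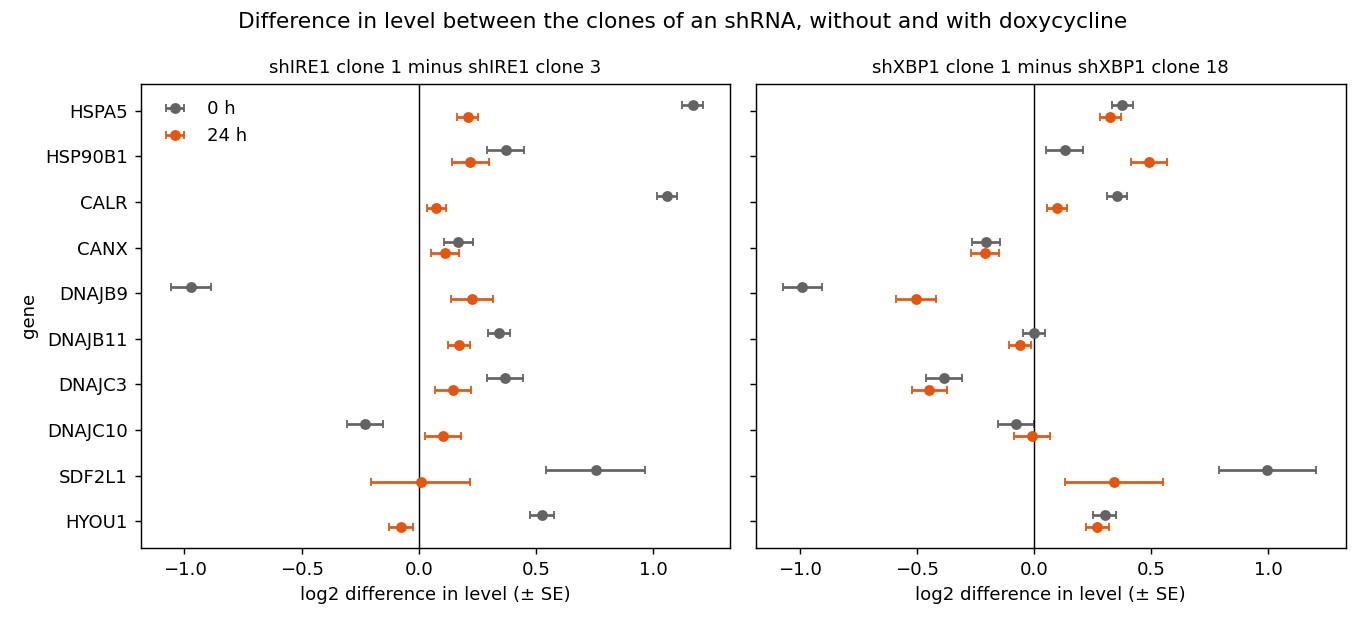
Difference in level between the clones of an shRNA for each gene, as log2 of clone 1 over clone 3 (shIRE1, left) and of clone 1 over clone 18 (shXBP1, right), with bars of ± 1 SE, in grey at 0 h and orange at 24 h of Dox. In the left panel HSPA5 lies at 1.17, CALR at 1.06 and DNAJB9 at −0.97 at 0 h, and at 0.21, 0.075 and 0.23 at 24 h, and in the right panel most genes keep their side of 0.

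The genes that work beside these 10 were counted from lists, by label. The 72 h libraries labelled shIRE1 clone 1 carry clone 3 markers. A list of BiP partners and J-domain proteins of the ER held 12 genes, not all of which are known to act on BiP. At 72 h 7 of them fell and 4 rose in shIRE1 clone 1 (median −0.47) and 7 fell and 1 rose in clone 3 (median −0.68). FICD, which modifies BiP with AMP, changed by −1.18 (SE 0.11) and −2.17 (SE 0.11), MANF, an ER cofactor of BiP, by −1.52 (SE 0.047) and −1.32 (SE 0.071), and HSPA13, an Hsp70 relative, by −0.96 (SE 0.064) and −1.89 (SE 0.060). DNAJC18, a J-domain gene for which no action on BiP is claimed here, rose in both (0.66, SE 0.068 and 0.25, SE 0.074). In the shXBP1 clones 6 fell and 2 rose (clone 1) and 5 fell (clone 18), with FICD at −0.62 (SE 0.10) and −1.55 (SE 0.10) and SIL1, the other exchange factor of BiP, at −0.71 (SE 0.14) and −1.09 (SE 0.084), while MANF was not called (0.064 and −0.081). The shares of all genes called in these comparisons are those given above.

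Of 12 tested genes for glycoprotein folding and partners of GRP94, 11 fell in each shIRE1 clone (medians −0.52 and −0.60), among them PDIA3, the oxidoreductase that works with CALR and CANX (−1.83, SE 0.043 and −1.32, SE 0.056), and PRKCSH, a subunit of glucosidase II (−0.92, SE 0.071 and −0.86, SE 0.10). In the shXBP1 clones 6 fell in each and 1 rose in clone 1. CNPY2 changed by −0.83 (SE 0.076) and −1.04 (SE 0.084) and PRKCSH by −0.79 (SE 0.14) and −0.52 (SE 0.091), and PDIA3 was not called (−0.094 and 0.078). Of 6 tested prolyl isomerases of the ER, 5 fell in each shIRE1 clone and 4 in each shXBP1 clone, with FKBP11 at −0.80 (SE 0.041), −1.38 (SE 0.049), −1.13 (SE 0.082) and −1.30 (SE 0.081) in shIRE1 clones 1 and 3 and shXBP1 clones 1 and 18. In these 72 h comparisons 63.6%, 60.2%, 33.6% and 9.96% of all genes were called in the same order of clones, and 31.1%, 30.5%, 16.8% and 5.55% were called lower.

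Chaperones outside the ER served as a contrast, and the stress sensors as the level above. Of 13 tested cytosolic chaperones 10 were called higher and 1 lower in shIRE1 clone 1 than in clone 3 at 0 h (median 0.44). At 24 h 10 fell and 2 rose in clone 1 (median −0.29), and 5 fell and 4 rose in clone 3 (median −0.046). The shares of all genes called are again those given above. At 72 h by label 9 fell and 3 rose in clone 1 (median −0.21), and 3 fell and 7 rose in clone 3 (median 0.16). HSP90AA1, the inducible cytosolic Hsp90, changed by −2.04 (SE 0.038) and −1.11 (SE 0.066) and BAG3 by 0.36 (SE 0.051) and 0.87 (SE 0.076). Of the same 13, 5 fell and 1 rose in shXBP1 clone 1 and 2 fell and 2 rose in clone 18. Of 6 mitochondrial chaperones 4 fell in each shIRE1 clone, with HSPD1 at −0.49 (SE 0.046) and −0.54 (SE 0.074), 3 fell in shXBP1 clone 1 and none was called in clone 18 by edgeR (0 of the 6 at an unadjusted p under 0.05). Of 8 stress sensors and their factors, which include the targets ERN1 and XBP1, 6 fell and 1 rose in shIRE1 clone 1 and 8 fell in clone 3, with ATF4 at −0.52 (SE 0.046) and −1.31 (SE 0.057), and 2 fell and 2 rose in shXBP1 clone 1 and 6 fell in clone 18.

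Across the 16 group means, centred within each clone, the 10 genes followed each other to different degrees. DNAJC3 and HYOU1 (r = 0.957), CANX and DNAJC3 (r = 0.955) and HSPA5 and DNAJB11 (r = 0.953) were the closest pairs, and DNAJC10 was negative with each of the other 9, from −0.745 with HSPA5 to −0.126 with DNAJB9. Among 9498 other genes with a mean log2 CPM of at least 3, those most like HSPA5 were XPO7 (r = 0.985), PPP4R1 (0.984) and VANGL1 (0.980), and those most like DNAJB9 were SERP1 (0.994), SLC33A1 (0.983) and HSPA13 (0.974). These are descriptions over groups that share 0 h libraries, clones and one time course.

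Several of the genes share exonic bases with genes on the opposite strand: HSP90B1 with UQCC6 (805 bases), CANX with CBY3 (638), DNAJB11 with TBCCD1 (381), and HYOU1 (667) and CALR (270) each with a noncoding RNA. The strand setting of the counting is not given in the sources used here, so the share of their counts that comes from those genes is uncertain. The genes lie on GRCh38 at chr9:125234853-125241382 (HSPA5), chr12:103930107-103953931 (HSP90B1), chr19:12938578-12944489 (CALR), chr5:179678628-179731641 (CANX), chr7:108569867-108574850 (DNAJB9), chr3:186567403-186585800 (DNAJB11), chr13:95677139-95794988 (DNAJC3), chr2:182716255-182794464 (DNAJC10), chr22:21642302-21644299 (SDF2L1) and chr11:119044188-119057227 (HYOU1) in GENCODE 44.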

How the data were processed

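mRNA of AMO1 cells had been sequenced with a stranded mRNA kit as single ends of 50 bases, in 4 clones, 4 times of Dox and 3 replicates. The authors deposited raw counts per gene (58302 genes, unnormalised) and a log2 CPM table with TMM scaling (18401 genes), which differs from log2 CPM computed by edgeR (prior count 2) by at most 4.97e-14. It was used as deposited, in an alternative only, although the plan had allowed for unlogged values. The submitters' processing notes list GSNAP, R 4.1.3, edgeR 3.32.1 and limma 3.46.0 and the builds GRCh37 and hg19, without role or order. The annotation counted is not given in the sources used here. Coordinates come from GENCODE 44 (GRCh38) and promoters from RefSeq (GRCh38.p14), joined to the counts by symbol.

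Counts (19177855 to 40767202 per library) were scaled by TMM, filtered by filterByExpr (minimum count 10, minimum total count 15) and tested by the quasi-likelihood method of edgeR 4.0.16 under R 4.3.3. Each clone had a fit of its 12 libraries, and differences between clones or shRNAs came from a fit of all 48 with 16 group means (18445 genes). Two-sided p-values were corrected by the Benjamini-Hochberg method across the whole set of genes in a fit, with 0.05 as threshold. Groups came from the sample labels.

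The 10 genes, the lists and the rule for naming list genes (called at 72 h in one direction in both clones of an shRNA, at most the 3 largest mean changes per list and direction) were chosen with earlier results of these data known. MANF and PDIA3 in the shXBP1 clones lie outside that rule and were added after their values were seen. Markers of the shIRE1 clones differed by 1 or more on the log2 scale and drifted by under 0.5 from 0 to 24 h. They were chosen after the data were seen, as were the comparisons with the other clone at 0 h, without libraries that went against their label, of levels at 24 h, from 24 to 48 h and with 1 shIRE1 clone alone. Alternatives were RLE factors, no filter, a replicate block, DESeq2 1.42.0, limma 3.58.1 on the log2 table, the 6 compared or all 48 libraries in a fit, single clone pairs and leaving out each library. On simulated data for shIRE1 clone 1 at 72 h (16812 genes, 200 changed), 142 changes were recovered, 85 of 100 that were 2-fold, and 7.19% of calls were false. In the fit of all 48 libraries (17888 genes, 200 changed) 135 were recovered, 72 of 100 that were 2-fold, and 4.26% of calls were false. Far fewer genes changed there than the 63.6% called in the data, so these rates do not carry over to the data.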

Additional observations from a re-analysis of the deposited data

Results flagged for a closer look

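These results were picked out because a test of the difference between the responses of different clones passed (edgeR, adjusted p under 0.05, 1 model of the 48 libraries). All values are differences between log2 changes against 0 h. The test measures them against the spread of libraries within a clone and time, not against the spread between clones. Groups of 3 libraries were too small for a test of single outlying samples. Each library was left out in turn, and the results above name calls that this changed. No data outside the comparisons were used. For the shIRE1 clones minus the shXBP1 clones the difference at 24 h was −0.785 for HSPA5, −1.03 for HSP90B1, −0.561 for CALR, −0.492 for CANX, −0.466 for DNAJB9, −0.651 for DNAJB11, −0.469 for DNAJC3, 0.224 for DNAJC10 and −0.951 for HYOU1. At 48 h it was −1.44 for HSPA5, −1.2 for HSP90B1, −0.669 for CALR, −0.993 for CANX, −0.695 for DNAJB9, −1.36 for DNAJB11, −0.788 for DNAJC3, 0.576 for DNAJC10 and −0.891 for HYOU1. At 72 h it was −1.48 for HSPA5, −1.23 for HSP90B1, −0.606 for CALR, −0.858 for CANX, −0.667 for DNAJB9, −1.3 for DNAJB11, −0.681 for DNAJC3, 0.692 for DNAJC10 and −0.907 for HYOU1. The shIRE1 libraries whose clone markers went against the label are part of the values at 48 and 72 h.

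Between the shIRE1 clones (clone 1 minus clone 3) at 24 h the difference was −0.961 for HSPA5, −0.985 for CALR, 1.2 for DNAJB9, −0.173 for DNAJB11, 0.333 for DNAJC10 and −0.603 for HYOU1. DNAJB9 and CALR moved in opposite senses here: the clone that began with more DNAJB9 and less CALR had the larger fall of DNAJB9 and no called change of CALR. Differences between the shIRE1 clones at 48 and 72 h are not reported because of those labels.

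Between the shXBP1 clones (clone 1 minus clone 18) the difference was 0.359 for HSP90B1, −0.257 for CALR and 0.487 for DNAJB9 at 24 h. It was 0.331 for HSP90B1, −0.528 for CALR and 0.848 for DNAJB9 at 48 h and −0.232 for HSPA5, −0.429 for CALR and 0.846 for DNAJB9 at 72 h. The last of these include the library labelled clone 18, 72 h, replicate 3, whose markers were those of clone 1.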

How the results depend on the processing

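The 30 counts of genes called and the 300 changes of single genes were recomputed under alternatives. Of 502 values of the counts 483 stayed within 1.5 times the first value, 10 were lower and 9 higher. Of 5020 values of the changes 4798 kept direction and call, 133 lost the call, 81 gained one and 8 reversed. With only the 6 compared libraries fitted, 4 genes were called in shXBP1 clone 1 at 24 h in place of 7, 5 in clone 18 at 24 h in place of 3, and 4 in clone 18 at 72 h in place of 8. The shares of all genes called in these smaller fits, and in the fits with 1 library left out, are not given here. The counts are therefore not read as a result about the 10 genes. In shXBP1 clone 18 from 24 to 72 h 2 genes were called with no filter, by DESeq2 and with all 48 libraries, in place of 0, and from 0 to 2 with 1 library left out. Leaving out 1 library gave 4 to 9 calls in shXBP1 clone 18 at 72 h, 1 to 4 for the level of the shIRE1 clones at 24 h (2 with all libraries, and 4 without the library labelled shIRE1 clone 3, 24 h, replicate 1), and 3 to 5 for the difference between the shXBP1 responses at 72 h (3 with all libraries).

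Of the 18 same-numbered pairs per clone 4, 4, 8 and 6 correlated above 0.1 (r from −0.807 to 0.668). The numbers paired the libraries of 1 comparison, shXBP1 clone 1 at 0 and 72 h (r = 0.653, 0.365 and 0.371), where a replicate block ended the call of DNAJC10 and no other. Over all comparisons the block ended 14 of the 199 calls and none was gained, and the level of the shIRE1 clones at 24 h then had 0 calls. DESeq2 gained 6 calls and lost 0, RLE factors gained 3, no filter gained 17 and lost 4, and limma on the deposited log2 table gained 2 and lost 2. The values that reversed concern 2 genes. CALR in shIRE1 clone 3 at 48 h was −1.05 against the 0 h libraries of clone 1, and its difference with shIRE1 clone 3 against shXBP1 clone 1 alone was 0.060, 0.19 and 0.20 at 24, 48 and 72 h. The difference of DNAJB9 was 0.13 at 24 h with shIRE1 clone 1 alone and 0.38, 0.25 and 0.27 at the 3 times with shIRE1 clone 1 against shXBP1 clone 18 alone. The cause was not tested. The lowest level of any of the 10 genes in a library was 6.89 CPM (SDF2L1), and limits set by depth were not compared between genes.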
